A study of Mus musculus with 2 samples.

Results

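A set of 10 mechanosensitive and acid-sensing channel genes was read in single-nucleus RNA profiles of the mouse preoptic area (POA), the hypothalamic region that sets body temperature. They were Piezo1 and Piezo2, Tmem63a, Tmem63b and Tmem63c, Panx1, Asic1, Asic2 and Asic4, and Pkd2, chosen by their symbols out of 32285 genes in both deposited count tables. The study compared mice that received ultrasound at the POA (US+) with mice that received sham treatment (US-), to learn which neurons and channels respond to sound. All mice were wild type, of the strain C57BL/6NCrl and 6 to 9 weeks old, and nuclei were taken about 1 h after treatment. Each group was 1 library of nuclei pooled from 4 mice and sorted for NeuN, a protein of neuronal nuclei. A library thus stands for a pool and not for single animals, no spread between animals can be given, and all intervals in this text are 95% intervals for counting error only.

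Channels of this set turn force, swelling or acid into current. PIEZO proteins are opened directly by membrane stretch, Piezo1 being known from vessels and blood cells and Piezo2 from touch and body-position neurons. TMEM63 (OSCA) proteins are stretch- and osmolarity-activated channels, and PANX1 forms a large pore that releases ATP. Acid-sensing ion channels (ASICs) are trimers that pass sodium when protons rise outside the cell, with Asic1 as the main brain proton sensor, Asic2 as a partner subunit that tunes it and Asic4 as a subunit that gives little current alone. Pkd2 encodes polycystin-2, a cation channel of primary cilia and the endoplasmic reticulum. A transcript count in a nucleus does not measure the channel in the membrane.

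Levels are given as CPM, the summed unique molecular identifiers (UMIs) of a gene per 1e6 UMIs of the same nuclei. After nuclei with under 200 or over 7500 genes, over 5% mitochondrial UMIs or under 2000 UMIs were left out, 11040 US- nuclei with 98904011 UMIs and 9912 US+ nuclei with 84857570 UMIs remained of 23800 in all. The median nucleus held 7664 UMIs in US- and 7376 in US+, so that 1 UMI was worth 0.0101 and 0.0118 CPM. Nuclei were given to 8 types when they held at least 1 UMI of every gate gene (3 for Esr1) and met no other gate, which placed 4275 US- and 2755 US+ nuclei. Types are named by their gate genes. Of the other markers checked, at least 2-fold enrichment in both libraries was seen for 4 of 6 in Rarb/Drd1 nuclei (striatal direct-pathway genes), 6 of 6 in Rarb/Drd2, 4 of 5 in each of Lhx6/Sox6, Lhx8 and Esr1, and 5 of 6 in Vipr2, but only for 2 of 4 in Tcf7l2/Slc17a6 and 1 of 3 in Skor2/Slc17a6. The make-up of the libraries differed: Rarb/Drd1 nuclei were 9.83% of kept US- and 3.25% of kept US+ nuclei, and Vipr2 nuclei 0.761% and 2.34%. Of the kept nuclei, 19 barcodes occurred in both libraries.

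The genes of this set differ widely in length. On the mouse genome GRCm38 (GENCODE M21), Asic2 spans 1088 kb at chr11:80880169-81968457 on the minus strand, of which exons cover 0.392%. The other ASIC genes are short, with Asic1 at chr15:99670368-99701130 (plus strand, 30.8 kb) and Asic4 at chr1:75450436-75474343 (plus strand, 23.9 kb). Piezo1 lies at chr8:122481698-122551329 on the minus strand, and Piezo2 spans 377 kb. Tmem63a is at chr1:180942344-180975112 (plus strand), Tmem63b at chr17:45660171-45686905 (minus strand) and Tmem63c at chr12:87021340-87090043 (plus strand). Panx1 is at chr9:15002128-15045478 (minus strand) and Pkd2 at chr5:104459450-104505819 (plus strand). Cell Ranger, the counting program, was run on its default settings per the authors, and the setting for reads in introns is not named separately. Levels are compared within a gene and not between genes.

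The TMEM63 genes are related, but Tmem63a was far higher in oligodendrocyte-gated nuclei than in others, whereas Tmem63b and Tmem63c were detected in all 8 neuron types. Their start regions are shown for that reason. Each window runs from 250 bases before to 50 after an annotated start (RefSeq, GRCm38.p6). Capitals mark matches on either strand to GGGCGG, the core of the GC box, to ACAAAG, letters shared by SOX sites, or to the TATA-box core, TATAAA.
Tmem63a, chr1:180942268-180942567, plus strand: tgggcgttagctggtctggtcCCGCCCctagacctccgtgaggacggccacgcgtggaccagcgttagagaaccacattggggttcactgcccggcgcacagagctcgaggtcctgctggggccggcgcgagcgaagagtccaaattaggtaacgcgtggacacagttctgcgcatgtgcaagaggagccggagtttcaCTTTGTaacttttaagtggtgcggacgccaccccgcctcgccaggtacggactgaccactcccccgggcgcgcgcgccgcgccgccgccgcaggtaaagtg
Tmem63b, chr17:45686169-45686468, minus strand: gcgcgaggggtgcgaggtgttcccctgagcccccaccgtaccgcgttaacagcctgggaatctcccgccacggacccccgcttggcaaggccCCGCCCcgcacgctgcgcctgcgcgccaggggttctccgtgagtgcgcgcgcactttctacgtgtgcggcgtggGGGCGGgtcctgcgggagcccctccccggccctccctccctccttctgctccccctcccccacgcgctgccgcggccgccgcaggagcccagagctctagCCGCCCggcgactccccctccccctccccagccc
Tmem63c, chr12:87021090-87021389, plus strand: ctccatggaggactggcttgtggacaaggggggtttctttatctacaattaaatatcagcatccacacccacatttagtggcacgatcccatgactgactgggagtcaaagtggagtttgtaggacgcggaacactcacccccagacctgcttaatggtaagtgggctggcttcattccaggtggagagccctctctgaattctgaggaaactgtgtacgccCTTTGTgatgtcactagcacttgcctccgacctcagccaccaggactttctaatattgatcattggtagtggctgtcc
Tmem63c, second start, chr12:87026042-87026341, plus strand: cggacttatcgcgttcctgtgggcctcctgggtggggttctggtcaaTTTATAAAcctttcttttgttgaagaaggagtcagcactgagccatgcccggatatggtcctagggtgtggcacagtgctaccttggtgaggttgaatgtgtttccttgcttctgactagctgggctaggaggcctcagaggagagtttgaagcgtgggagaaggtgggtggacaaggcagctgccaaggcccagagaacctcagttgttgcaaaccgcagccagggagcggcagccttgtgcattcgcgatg
The Tmem63a and Tmem63b windows were rich in CpG, with 33 and 34 CpG pairs and a GC share of 65% and 76%, whereas the Tmem63c windows held 5 and 9 pairs. GGGCGG occurred 3 times in Tmem63b and 1 time in Tmem63a, and stands in 35.7% of the 32851 windows of this kind. ACAAAG occurred 1 time in Tmem63a and 1 time in the first Tmem63c window and stands in 18.7% of all windows. TATAAA, present in 13.6%, occurred at the second Tmem63c start as 2 overlapping matches, 1 on each strand. Which of the starts these nuclei used cannot be read from the counts, and a match of letters is no binding site.

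Members with enough counts differed by under 1.5-fold between the libraries in CPM over all kept nuclei, as did most genes. Of the 8 members with at least 100 UMIs in both libraries together, 0 were at least 1.5-fold higher and 0 at least 1.5-fold lower in US+, where 6.01% and 2.83% of the 18424 genes with as many UMIs were. Asic4 was the exception under other settings, at 0.665 with TMM scaling and 0.657 with equally weighted, overlapping types, both past 1.5-fold lower. With 1 library a group there is no test of the treatment, and the values compare these libraries. Over all genes the median log2 ratio was 0.05.

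Pkd2 was at 51.0 (US-) and 50.8 CPM (US+), a ratio of 0.996 (interval 0.957 to 1.04), and Tmem63b at 76.6 and 75.2 CPM (0.982, 0.950 to 1.02). Neither pair of values differed beyond counting error. Tmem63c stood at 52.0 and 56.2 CPM (1.08, 1.04 to 1.12) and Asic2 at 2121 and 2254 CPM (1.06, 1.06 to 1.07). Both of these were slightly higher in US+, with intervals above 1 that leave out variation between nuclei. The median ratio over the 18424 genes with at least 100 UMIs was 1.04. Asic1 was at 25.0 and 21.9 CPM (0.878, 0.826 to 0.933) and Panx1 at 14.2 and 12.7 CPM (0.898, 0.829 to 0.973), and both were lower in US+ by more than counting error.

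Asic4 differed most among the well-counted members. Its level was 7.34 CPM in US- (726 UMIs in 589 nuclei) and 5.10 CPM in US+ (433 UMIs in 361 nuclei), a ratio of 0.695 (0.616 to 0.784). Of the groups rich in Asic4, described further on, Rarb/Drd1, Lhx8 and Chat/Slc5a7 nuclei were rarer in US+. Lhx8 nuclei were 10.4% of kept US- and 6.69% of kept US+ nuclei. Nuclei with Sim1 and Slc17a6 were commoner, at 1.73% of kept US- and 5.14% of kept US+ nuclei. When each of the 8 types was given equal weight, its ratio was 0.789 with an interval of 0.606 to 1.03, and on that scale 2.01% of 13904 genes were at least 1.5-fold higher and 2.11% at least 1.5-fold lower, against 0 of 8 members in either direction. The share of the pooled difference that comes from cell make-up was not tested. The interval of Asic1 stayed below 1 with equal weights (0.796, 0.673 to 0.941). That of Tmem63b was below 1 with equal weights (0.904, 0.826 to 0.990) but not over all nuclei (0.982, 0.950 to 1.02). Tmem63b was higher in US+ in 3 of the 8 types and lower in 5. Its lowest ratio was 0.499 in Skor2/Slc17a6 nuclei, from 12 US+ and 32 US- UMIs.

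Piezo1, Piezo2 and Tmem63a had low counts in both libraries. Piezo1 had 47 UMIs in each, at 0.475 CPM in US- and 0.554 in US+ (ratio 1.17, 0.761 to 1.79). Piezo2 was at 4.90 CPM (485 UMIs) and 5.68 CPM (482 UMIs), a ratio of 1.16 (1.02 to 1.32). Tmem63a rested on 21 UMIs in US- and 35 in US+, 0.212 and 0.413 CPM, and its ratio of 1.94 had an interval of 1.10 to 3.51. Piezo2 UMIs were bunched: those 485 and 482 UMIs came from 227 and 228 nuclei, so that intervals which take UMIs as independent are too narrow for this gene. The same limit holds for other members whose levels vary between nuclei, among them Asic2. Its library ratio in Lhx8 nuclei, 0.954 (0.935 to 0.973), left that interval under other settings given further on.

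**Figure D1:**
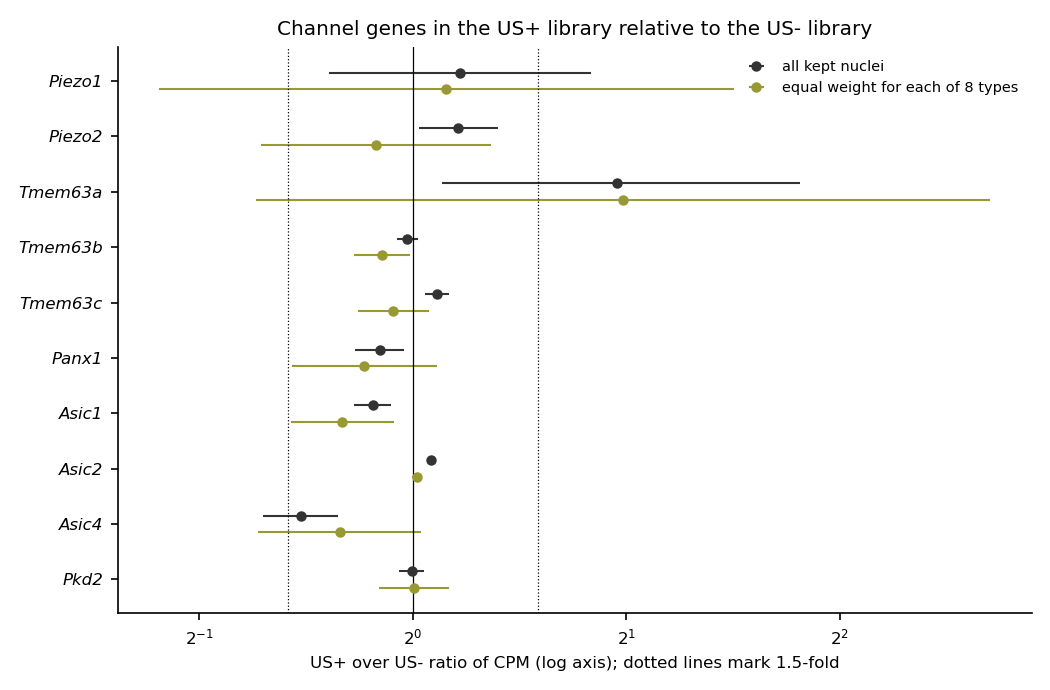
Ratio of CPM in US+ over US- on a log axis for the 10 members, over all kept nuclei (dark) and with each of 8 types given equal weight (olive); points are ratios, bars are 95% counting intervals and dotted lines mark 1.5-fold. Asic4 sits at 0.695 over all nuclei and 0.789 with equal weights, Pkd2 at 0.996 and 1.00, and the bars of Piezo1 and Tmem63a are wide.

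In a nucleus thinned at random to 2000 UMIs, most members were rarely seen. Asic2 was detected in 84.6% of US- and 87.8% of US+ nuclei at that depth, Tmem63b in 14.2% of both, Pkd2 in 9.92% and 9.77%, and Tmem63c in 9.47% and 10.3%. Asic1 was seen in 5.08% and 4.39%, Panx1 in 2.74% and 2.56%, Asic4 in 1.38% and 1.09%, and Piezo2 in 0.797% and 0.767%. Piezo1 and Tmem63a were each seen in at most 0.131% of nuclei. Leaving Asic2 aside, 63.1% of US- and 63.3% of US+ nuclei showed none of the other 9 members, 30.7% and 30.5% showed 1, and 5.71% and 5.58% showed 2. These shares give detection at 2000 UMIs and not expression, since a gene at a few CPM is missed in most nuclei. In whole, unthinned nuclei the share of positive nuclei was 2.06% and 2.30% for Piezo2.

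Piezo2 was highest in a group of excitatory neurons. In nuclei with Tcf7l2 and Slc17a6, the glutamate transporter gene, it was at 35.4 CPM in US- (40 UMIs in 13 of 120 nuclei) and 18.0 CPM in US+ (20 UMIs in 9 of 114 nuclei). The other 7 types together had 2.57 and 3.15 CPM. The US- ratio of 13.8 (9.35 to 20.0) picked this type among the 8 and is a description. For the same type US+ gave 5.72 (3.33 to 9.39). It is not an independent repeat, since members and gates were chosen with earlier results of these data known. Of the 8 members with at least 200 UMIs in typed nuclei, Piezo2 was the 1 whose highest US- type passed 2-fold in both libraries, and 7.54% of 13904 genes did so. At 2000 UMIs, 7.50% (9 nuclei, 3.49 to 13.8) of US- and 2.63% (3 nuclei, 0.546 to 7.50) of US+ Tcf7l2/Slc17a6 nuclei showed Piezo2. The highest share seen in another type was 0.504% of Rarb/Drd2 nuclei (0.137 to 1.285) in US-. In US+ it was 1.24% of Rarb/Drd1 nuclei (0.340 to 3.15), whose interval overlaps that of Tcf7l2/Slc17a6. Lhx8 nuclei were at 0.0869% and 0.151%, from 1 nucleus in each library. Median depth in Tcf7l2/Slc17a6 nuclei, 8864 and 8216 UMIs, was close to that of all typed nuclei, 8866 and 8915. Astrocyte genes summed to 35.4 CPM in these US- nuclei and 160.3 CPM in the US+ ones, with 0 of 6 absent, and their part in the Piezo2 level was not tested.

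Glutamatergic nuclei in general held more Piezo2. In nuclei with at least 2 UMIs of Slc17a6 and more of it than of Gad1, Gad2 and Slc32a1 together, Piezo2 was at 11.1 (US-) and 7.55 CPM (US+). GABAergic nuclei, defined the opposite way, had 3.20 and 4.04 CPM, which made the ratio 3.48 (2.49 to 4.78) and 1.87 (1.26 to 2.69). Piezo2 was the 1 of 8 members past 1.5-fold upward in both libraries, where 3.91% of genes were, and 0 were past it downward, where 4.34% were. Tmem63c leaned the same way by less, at 1.34 (1.18 to 1.51) and 1.30 (1.15 to 1.46), whereas Pkd2 did not differ between the classes beyond counting error, at 1.02 and 1.03.

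Further gates, used after values had been seen, also held Piezo2. Nuclei with Sim1, a transcription factor of paraventricular and supraoptic neurons, and Slc17a6 had 12.7 CPM in US- (26 UMIs in 13 of 191 nuclei) and 10.6 CPM in US+ (63 UMIs in 28 of 509 nuclei), against 4.74 and 5.31 CPM in all other nuclei. Nuclei with Adcyap1, which encodes the peptide PACAP, and Slc17a6 had 14.3 CPM (21 UMIs in 8 of 132) and 17.9 CPM (48 UMIs in 11 of 217). These gates overlap with the 8 types and with each other. Genes of at least 15 UMIs in Piezo2-positive nuclei were ranked by CPM + 5 there over CPM + 5 in Piezo2-negative nuclei. Other rankings of positive nuclei below used the same rule. Without the added 5, genes at low levels rank higher, such as Lef1 at 11.1 against 0.622 CPM in US-. Highest by the rule in US- were Tcf7l2, Oxt (the peptide oxytocin) and Sim1, at 71.7, 92.5 and 48.3 CPM against 15.1, 23.0 and 11.5 CPM in Piezo2-negative nuclei. In US+ the same genes were at 34.8, 62.9 and 57.4 CPM against 14.3, 46.8 and 28.1 CPM. Vipr2 nuclei, which carry genes of the suprachiasmatic clock, had 0 Piezo2 UMIs in 84 US- nuclei, which allows up to 5.88 CPM, and 9 UMIs (4.97 CPM) in 232 US+ nuclei.

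Between the libraries, Piezo2 in Tcf7l2/Slc17a6 nuclei was lower in US+, at a ratio of 0.508 (0.282 to 0.890), but the UMIs lay in 13 and 9 nuclei. In the Sim1/Slc17a6 gate the ratio was 0.832 (0.520 to 1.37), and in Esr1 nuclei 0.994 (0.569 to 1.77).

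**Figure D2:**
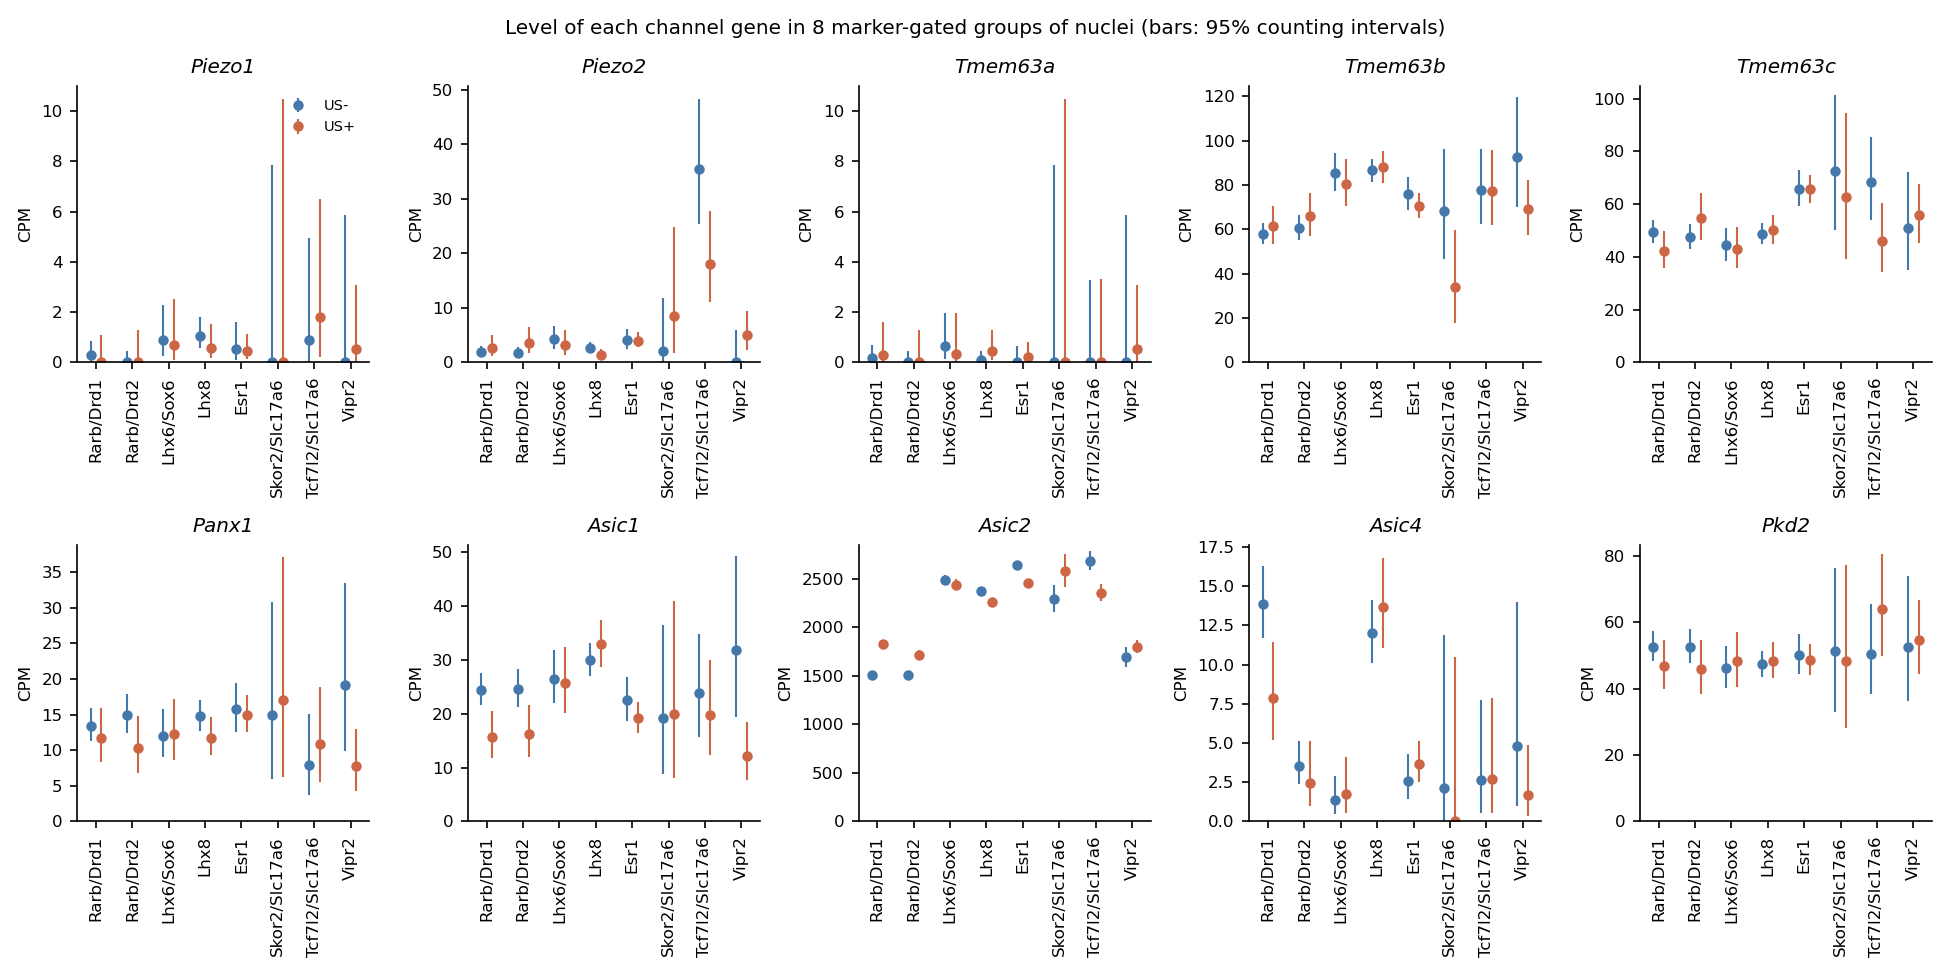
CPM of each member in the 8 types, one panel per gene with its own linear axis from 0; blue points are US-, orange points US+, and bars are 95% counting intervals. Piezo2 stands out in Tcf7l2/Slc17a6 nuclei at 35.4 and 18.0 CPM, Asic4 in Rarb/Drd1 and Lhx8 nuclei, Asic2 is lower in the Rarb and Vipr2 types, and Pkd2 runs nearly level.

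Asic4 followed the dopamine-receptor split of striatal-type neurons. Nuclei with Rarb and Drd1, the receptor of the direct pathway, had 13.8 CPM in US- (145 UMIs, 1085 nuclei) and 7.87 CPM in US+ (27 UMIs, 322 nuclei). Nuclei with Rarb and Drd2, of the indirect pathway, had 3.55 CPM (28 UMIs) and 2.48 CPM (7 UMIs). Within each library the Rarb/Drd1 level was thus above the Rarb/Drd2 level, by 3.90-fold (2.59 to 6.07) and 3.18-fold (1.35 to 8.64). This pair was chosen after the values were seen. Lhx8 nuclei, of the basal forebrain and preoptic lineage, had 11.99 and 13.7 CPM, while Lhx6/Sox6, Esr1, Skor2/Slc17a6, Tcf7l2/Slc17a6 and Vipr2 nuclei had at most 4.78 CPM in either library. Against all other types, Rarb/Drd1, the highest in US-, was 2.21-fold higher there and 1.36-fold (0.864 to 2.06) in US+, where Lhx8 was higher.

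Asic4 was also enriched in nuclei with cholinergic genes, which held a small part of its UMIs. Nuclei with both Chat, the enzyme that makes acetylcholine, and Slc5a7, the choline transporter, a gate set after the Asic4-positive nuclei had been ranked, had 33.8 CPM in US- (99 UMIs in 62 of 196 nuclei) and 36.2 CPM in US+ (31 UMIs in 20 of 61 nuclei). All other nuclei, with 627 and 402 UMIs, had 6.53 and 4.79 CPM, so the gate was 5.17-fold (4.14 to 6.404) and 7.55-fold (5.07 to 10.9) higher. Within the Lhx8 type, nuclei with both cholinergic genes were at 32.0 and 47.3 CPM, and nuclei with neither at 7.75 and 10.4 CPM. Prima1, which anchors acetylcholinesterase, Slc5a7 and Chat led the genes of Asic4-positive nuclei in US-, at 100.4, 94.8 and 70.2 CPM against 13.4, 14.8 and 10.6 in Asic4-negative nuclei. The same genes in US+ were at 39.4, 49.6 and 37.2 CPM against 5.45, 4.48 and 4.04. Chat/Slc5a7 nuclei were 1.78% of kept US- and 0.615% of kept US+ nuclei, and were deeper than average, with medians of 13940 and 12580 UMIs.

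Asic4 was also high in the Sim1/Slc17a6 gate, at 27.4 CPM in US- (56 UMIs in 39 nuclei) and 11.6 CPM in US+ (69 UMIs in 57 nuclei). Other nuclei had 6.92 and 4.61 CPM. The US+ over US- ratio in this gate was 0.423 (0.293 to 0.613), and in Rarb/Drd1 nuclei 0.569 (0.362 to 0.862). In Chat/Slc5a7 nuclei it was 1.07 (0.690 to 1.61), in Lhx8 nuclei 1.14 (0.870 to 1.49) and in Esr1 nuclei 1.43 (0.745 to 2.90). The lower Asic4 of the US+ library was therefore seen inside some gates and not in others, and no test of the difference between gates was run.

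The other ASIC members of the set, Asic1 and Asic2, were also higher in the cholinergic gate. Asic1 was at 37.9 (US-) and 42.0 CPM (US+) there, 1.54-fold (1.26 to 1.87) and 1.94-fold (1.35 to 2.69) over other nuclei. Asic2 was at 3479 and 3662 CPM, 1.67-fold (1.64 to 1.71) and 1.64-fold (1.58 to 1.69) higher. Pkd2, at 0.970 (0.817 to 1.15) and 0.941 (0.674 to 1.28), and Tmem63b, at 1.05 (0.918 to 1.20) and 1.05 (0.819 to 1.34), did not differ there beyond counting error. In the Lhx8 type alone, cholinergic nuclei had 1.76-fold and 1.72-fold the Asic2 of nuclei with neither gene, and 1.29-fold (0.980 to 1.67) and 1.60-fold (1.06 to 2.35) the Asic1.

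Asic2 was detected in nearly every group of nuclei and was low among the types in the striatal-type gates. Rarb/Drd1 and Rarb/Drd2 nuclei were both at 1509 CPM in US-, and at 1825 and 1717 CPM in US+, where Vipr2 nuclei lay between them at 1800 CPM. Astrocyte-gated nuclei were lower still, at 1085 and 1414 CPM. The other 6 types together were at 2445 and 2332 CPM, so that the Rarb types had 0.617 (0.608 to 0.626) of that level in US- and 0.761 (0.746 to 0.777) in US+. Highest were Tcf7l2/Slc17a6 and Esr1 in US-, at 2683 and 2635 CPM, and Skor2/Slc17a6 and Esr1 in US+, at 2578 and 2450 CPM. Oligodendrocyte-gated nuclei still showed 1767 and 1939 CPM, and the part of free RNA in that level was not tested. Within types the libraries went in both directions, from 0.877 (0.832 to 0.925) in Tcf7l2/Slc17a6 to 1.21 (1.17 to 1.24) in Rarb/Drd1 nuclei. The directions in Lhx8 nuclei (0.954) and Skor2/Slc17a6 nuclei (1.13) depended on the weight of deep nuclei, since with nuclei over 20000 UMIs left out Lhx8 gave 1.03, and with each nucleus weighted alike Lhx8 gave 1.01 and Skor2/Slc17a6 0.982.

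Asic1 differed in its order of types between the libraries. Its highest type in US-, Vipr2 with 31.9 CPM from 20 UMIs, was its lowest in US+ with 12.2 CPM from 22 UMIs. Lhx8 nuclei were at 29.9 and 32.9 CPM. Its US+ over US- ratio had an interval below 1 in Rarb/Drd1 (0.644, 0.471 to 0.867), Rarb/Drd2 (0.661, 0.468 to 0.916) and Vipr2 nuclei (0.381, 0.198 to 0.736), and in Lhx8 nuclei it was 1.10 (0.925 to 1.30). With gate genes from 2 UMIs the Vipr2 value turned to 1.42 (0.423 to 7.49).

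Piezo1 counts were few, but they were not spread evenly. The Chat/Slc5a7 gate held 14 of the 47 US- UMIs, in 12 of 196 nuclei, which came to 4.78 CPM against 0.344 CPM elsewhere, a ratio of 13.9 (6.87 to 26.7). In US+ only 61 nuclei met the gate, with 2 UMIs, 2.33 CPM against 0.536 CPM and a ratio of 4.35 (0.512 to 16.7). The US+ interval includes 1, so the US- pattern was not repeated beyond counting error, and the gate was looked at after the positive nuclei had been ranked. By the CPM + 5 ranking, Piezo1-positive nuclei were led in US- by Dqx1, Chat and Prima1, the last 2 at 176 and 216.3 CPM against 13.9 and 18.3 CPM. In US+ Chat and Prima1 were at 48.5 and 55.4 CPM against 5.41 and 6.83, whereas Dqx1 had 0 UMIs in Piezo1-positive nuclei. Rarb/Drd2 nuclei held 0 Piezo1 UMIs in both libraries, which allows up to 0.468 CPM in US- and 1.305 CPM in US+. Vascular-gated nuclei, where Piezo1 is known to act, numbered 2 in US- and 27 in US+, too few in the NeuN sort to give a level, with 2 Piezo1 UMIs in US+.

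Tmem63a was enriched in nuclei with oligodendrocyte genes. Nuclei with at least 3 of 7 oligodendrocyte genes, a gate applied to this gene after its counts had been seen, had 31.2 CPM in US- (11 UMIs in 8 of 40 nuclei) and 14.3 CPM in US+ (22 UMIs in 20 of 130 nuclei). All other nuclei had 0.102 CPM (10 UMIs) and 0.156 CPM (13 UMIs), ratios of 307.4 (118.5 to 807.4) and 91.8 (44.2 to 198.3). Myelin genes led the Tmem63a-positive nuclei. Mobp was at 716.9 CPM in the 17 positive US- nuclei against 1.33 CPM in the rest, and at 296.2 CPM in the 32 positive US+ nuclei against 6.91 CPM. Mog was at 503.5 against 2.59 CPM in US- and at 86.4 against 4.61 CPM in US+. Typed nuclei held 6 and 8 Tmem63a UMIs in all. Nuclei of the GABAergic class, which can overlap with the oligodendrocyte gate, held 11 of the 21 US- and 18 of the 35 US+ UMIs, at 0.152 and 0.319 CPM. The oligodendrocyte-gated nuclei also carried 5 neuron markers at a summed 2765 and 3166 CPM, against 3896 and 3639 CPM in all kept nuclei, so they are not shown to be free of neuronal RNA.

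The oligodendrocyte gate took 0.362% of kept US- and 1.31% of kept US+ nuclei, and its 7 marker genes summed to 43.4 and 66.3 CPM over all kept nuclei, with 0 of them absent from either library. Beside this, the library ratio of Tmem63a was 1.94 over all nuclei, 1.54 (0.623 to 3.92) in nuclei outside the gate and 0.459 (0.213 to 1.05) inside it. Tmem63b and Tmem63c did not share the pattern, at 76.6 and 58.6 CPM and at 36.9 and 44.9 CPM in oligodendrocyte-gated nuclei against 76.6 and 75.5 and 52.1 and 56.4 CPM in the others. Piezo2 in the same gate was at 31.2 CPM in US-, from 11 UMIs in 5 nuclei, and at 8.46 CPM in US+, from 13 UMIs in 6 nuclei.

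**Figure D3:**
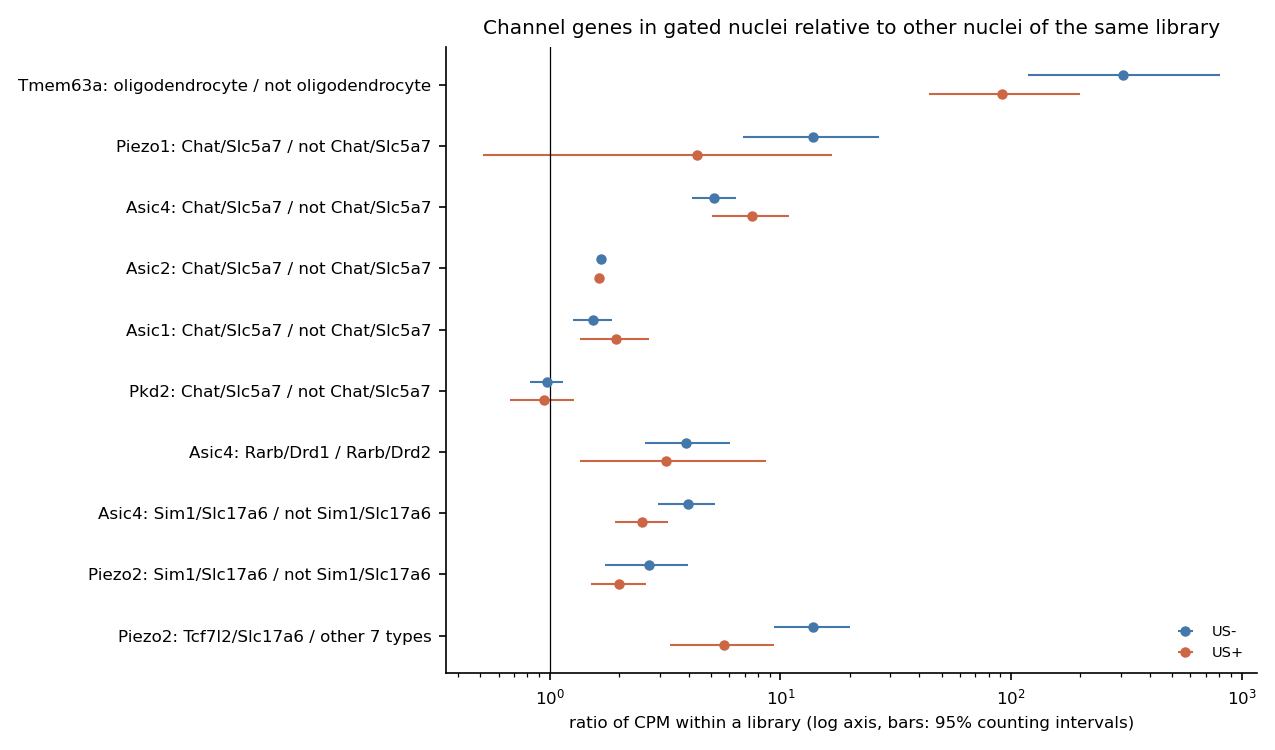
Ratio of CPM in a gated group of nuclei over a comparison group of the same library, on a log axis; blue points are US-, orange points US+, bars are 95% counting intervals, and 1 is the vertical line. Tmem63a is 307.4-fold and 91.8-fold higher in oligodendrocyte-gated nuclei, Asic4 5.17-fold and 7.55-fold in Chat/Slc5a7 nuclei, and Pkd2 lies at 1 in that gate.

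Tmem63b, Tmem63c, Panx1 and Pkd2 were found in all 8 types in both libraries. Tmem63b was lower in the Rarb types, at 59.2 CPM in US- and 63.6 in US+ against 83.4 and 77.0 CPM in the other 6 types (ratios 0.709, 0.658 to 0.764, and 0.826, 0.739 to 0.922). Lhx8 nuclei were at 86.6 and 88.0 CPM. Tmem63c was at 65.7 and 65.6 CPM in Esr1 nuclei and at 44.4 and 43.0 CPM in Lhx6/Sox6 nuclei. Panx1 ran from 7.97 CPM in Tcf7l2/Slc17a6 to 19.1 in Vipr2 nuclei in US-, and from 7.73 CPM in Vipr2 to 17.0 in Skor2/Slc17a6 nuclei in US+, so Vipr2 nuclei were highest in one library and lowest in the other. Each end of that range rested on 6 to 14 UMIs, and with gate genes from 2 UMIs the Vipr2 ratio of US+ over US- turned from 0.404 to 2.35 (0.342 to 101.2). Pkd2 was the most even, between 46.2 and 52.7 CPM in US- and between 46.0 and 63.9 CPM in US+, and its 7 neighbouring pairs of types overlapped in their intervals in both libraries.

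Ordered by level, neighbouring types could rarely be told apart. For 7 of 7 neighbouring pairs the intervals overlapped in both libraries for Piezo1, Tmem63a, Tmem63b, Tmem63c, Panx1, Asic1 and Pkd2. Piezo2 had 6 of 7 overlapping pairs in US-, with Tcf7l2/Slc17a6 set apart, and 7 of 7 in US+. Asic4 had 7 and 6, and Asic2 had 3 of 7 in US- and 6 of 7 in US+.

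By likeness over 16 points (8 types in both libraries, log2 of CPM + 1, 11310 genes with at least 500 typed UMIs), the genes nearest to Asic2 were Rhbdd3 (Pearson r 0.943) and 5530401A14Rik (0.935), a gene that overlaps Asic2 on the opposite strand. Asic4 was nearest to C79798 (0.885) and Pbx3 (0.881), a homeobox gene, Tmem63b to Ikzf5 (0.945) and Tmem50b (0.941), and Tmem63c to Tmed8 (0.893) and Ksr2 (0.847). Panx1 was nearest to Ercc1 (0.870) and Rbm45 (0.787), Asic1 to Trib2 (0.833) and Impa2 (0.832), and Pkd2 to Slc1a2 (0.821) and Ppil2 (0.805). The points share 2 libraries and their depths, and these values are the best of many and serve as a description.

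Nuclei with early genes did not stand 1.5-fold above expectation for any of the 8 counted members in US+. Early genes (Fos, Fosb, Egr1, Nr4a1 and Dusp1) are switched on within minutes of neuronal activity, and 183 US- and 406 US+ typed nuclei had at least 2 UMIs of them. They were 5.07% of US- and 50.3% of US+ Rarb/Drd1 nuclei, and 1.60% and 3.84% of Esr1 nuclei, so the number of member UMIs was set against that expected from nuclei of the same types without early genes. In US+, 0 of 8 members were at least 1.5-fold above expectation, where 3.15% of 13904 genes were. Pkd2 was at 1.01 (246 UMIs observed, 244.1 expected), Tmem63b at 1.01 (0.912 to 1.12), Tmem63c at 0.998 (0.880 to 1.13), Panx1 at 1.11 (0.854 to 1.42), Asic1 at 0.928 (0.752 to 1.13), Asic4 at 0.820 (0.545 to 1.19) and Asic2 at 0.964 (0.945 to 0.983), which was 1.003 with nuclei over 20000 UMIs left out. In US- the same 7 members lay between 0.718 and 1.24. There Asic2 was at 1.06 (1.03 to 1.09), but at 0.953 without nuclei over 20000 UMIs.

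Piezo2 was the 1 of 8 members at least 1.5-fold below expectation in US+, where 9.88% of genes were. Early-gene nuclei of US+ held 3 Piezo2 UMIs in 3 nuclei against 26.5 expected, 0.113 of it (0.0233 to 0.331), while 102 UMIs lay in 55 of the 2349 other typed nuclei. In Rarb/Drd1 nuclei, 162 US+ nuclei with early genes had 0 Piezo2 UMIs and 160 without them had 9 UMIs in 6 nuclei. US- early-gene nuclei held 3 UMIs against 7.69 expected (0.390, 0.0805 to 1.14). Counted as nuclei at 2000 UMIs the contrast was small in numbers, 1 of 406 against 14 of the others in US+, and since Piezo2 UMIs are bunched the interval is too narrow. With gate genes from 2 UMIs the US+ value was 0.498 (0.162 to 1.16), and with 1 early-gene UMI as the rule the US- value was 1.99 (1.47 to 2.63), above expectation. Early-gene nuclei were deeper, with a median of 10930 against 8645 UMIs in US+.

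**Figure D4:**
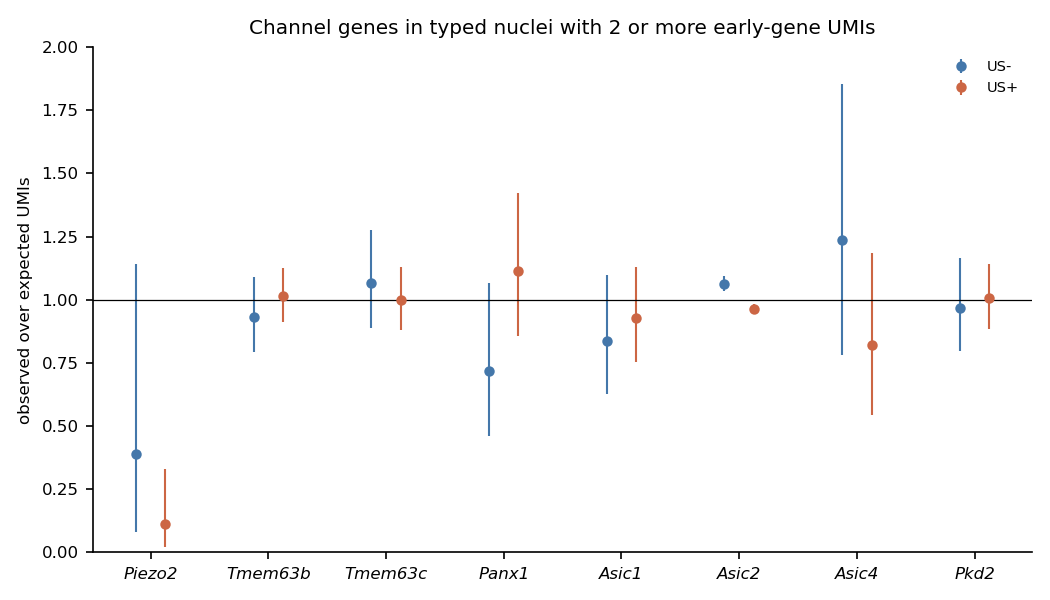
Observed over expected UMIs of the 8 members with at least 200 typed UMIs in typed nuclei with at least 2 early-gene UMIs, by library (blue US-, orange US+); bars are 95% counting intervals and the line marks 1. Piezo2 lies at 0.390 and 0.113, and the US+ values of the other 7 members lie between 0.820 and 1.11.

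Detection of Trpm2, the heat- and oxidant-gated channel that the study examined most, went with small differences in the members. In nuclei with at least 1 Trpm2 UMI, Tmem63b was 1.06-fold (1.00 to 1.11) and 1.07-fold (1.00 to 1.13) and Asic2 1.10-fold and 1.07-fold the level of other nuclei, and Piezo2 was at 1.45 (1.19 to 1.77) in US- and 0.925 (0.734 to 1.16) in US+. Nuclei with Trpm2 were deeper, with medians of 10210 against 7199 UMIs in US- and 9829 against 7008 in US+. The part of depth in these differences was not tested.

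Other genes of the same pathways, listed with earlier results known, mostly differed by under 1.5-fold between the libraries. Of all 18424 genes with at least 100 UMIs, 6.01% were at least 1.5-fold higher in US+ and 2.83% at least 1.5-fold lower. The counts in this paragraph and the next stand beside those shares, and each list is small. Of 5 other ASIC and epithelial sodium channel genes, 3 had at least 100 UMIs and 0 passed 1.5-fold. The 2 with most UMIs were Scnn1a, at 0.839 CPM in US- and 0.978 in US+, and Asic3, at 0.809 and 0.731. Of 5 other proton sensors 3 were counted and 0 passed, with Pacc1, a proton-activated chloride channel, at 8.42 CPM in US- and 8.46 in US+. Among 6 polycystin partners, 5 were counted and 1 was past 1.5-fold higher in US+, Pkd1l1, with 64 UMIs in US- and 110 in US+ (2.003, 1.46 to 2.77). Pkd1, the partner of Pkd2, was at 128.1 and 135.8 CPM, and Pkd2l2 at 38.7 and 41.7.

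Of 11 other large-pore and volume-regulated channel genes 7 were counted and 0 passed, led by Lrrc8d at 63.1 and 61.3 CPM and Lrrc8b at 47.5 and 45.7, both subunits of the volume-regulated anion channel. All 12 other proposed mechanosensors were counted and 1 passed, Tmc1, a subunit of the hair-cell transduction channel, with 66 and 97 UMIs (1.71, 1.24 to 2.38). Kcnk2, which encodes the stretch-sensitive potassium channel TREK-1, was at 142.2 and 143.3 CPM and Kcnk10 at 51.0 and 59.3. Of 9 PIEZO- and ASIC-binding proteins 7 were counted and 1 was lower, Mdfic, whose protein binds PIEZO channels, at 6.34 and 3.82 CPM (0.602, 0.525 to 0.690), while Cdh2 was at 283.9 and 278 CPM and Atp2a2 at 109.1 and 121.5. Among 9 receptor genes for ATP or ADP 7 were counted and 1 was past 1.5-fold higher, P2rx7, at 1.60 and 2.81 CPM (1.76, 1.43 to 2.16). P2ry12, which also served as a microglia marker, was at 115.7 and 125.3 CPM and P2rx4 at 23.5 and 29.4. List medians of the library ratio lay between 0.977 and 1.17, that of the 8 counted members was 0.989, and that of all 18424 genes was 1.04.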

How the data were processed

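The deposited tables hold whole-number UMI counts per gene and nucleus (10x 3' v3.1). Per the authors, reads went through Cell Ranger 6.1.1 against mm10 on default settings, and the libraries were brought to the depth of the one with the lowest saturation, so total UMIs are not the full sequencing depth. No column was left without a sample (0). Levels are CPM of summed UMIs. Intervals are exact Poisson, conditional binomial or Clopper-Pearson 95% intervals (scipy 1.17.1, numpy 2.4.6, pandas 2.3.3, Python 3.11.15). The equal-type ratio has a delta-method interval. Free RNA and doublets were not removed here, and nuclei that met more than 1 gate belonged to no type. Shares use each nucleus thinned to 2000 UMIs (seed 7). For a count of 0, the level it allows is the upper end of its Poisson interval. A single library per group allows no test, so p-values are not given. Computations were tested on simulated data.

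The members, gene lists and gates were chosen with earlier results of these data known. Named genes were the members, the 2 genes of each list with most UMIs, genes behind counts of 5 or fewer, and, for members with at least 500 typed UMIs, the 2 most correlated genes; some genes are not reported here. The Chat/Slc5a7, Sim1/Slc17a6 and Adcyap1/Slc17a6 gates, the Lhx8 split, the oligodendrocyte comparison and the genes leading positive nuclei were added after values were seen. Alternatives were UMI minima of 5000 and 1000, nuclei over 20000 UMIs left out, gate genes from 2 UMIs, overlapping types, TMM (edgeR 4.0.16, R 4.3.3), means per nucleus, other early-gene rules, other thinning, and nuclei of some gates left out.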

Additional observations from a re-analysis of the deposited data

Results flagged for a closer look

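Asic2, the member with the deepest counts, went in opposite directions in different types between the libraries, which is why it is listed here. In US+ it was 1.21 times the US- level in Rarb/Drd1 nuclei, 1.14 times in Rarb/Drd2 and 1.13 times in Skor2/Slc17a6 nuclei, while it was 0.954 times in Lhx8, 0.929 times in Esr1 and 0.877 times in Tcf7l2/Slc17a6 nuclei. Each of these intervals leaves out 1, but they cover counting error only, and the Lhx8 and Skor2/Slc17a6 directions turned under other settings. The difference between types was not tested, since each library is 1 pool.

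Nuclei with under 2000 UMIs, which the report's comparisons leave out, also held Asic2. Its level there was 1619 CPM in 623 US- nuclei and 1867 CPM in 1987 US+ nuclei, a ratio of 1.15 (1.08 to 1.24).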

How the results depend on the processing

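No paired analysis was possible because each group is 1 library. Over 16 alternatives, 48 of 51 counts of members stayed within 1.5 times of the value given. The 3 others were these. With gate genes from 2 UMIs, 0 members were called in their highest type, because Piezo2 then had too few typed UMIs to be counted, and its ratios were still 9.17 in US- and 6.68 in US+. With overlapping types, 1 member passed 1.5-fold at equal weights, Asic4 at 0.657, and with TMM 1 member passed between the libraries, Asic4 at 0.665. Some single values turned direction. For Piezo1 in US+ early-gene nuclei the observed over expected ratio became 0.912 with at least 5000 UMIs, 0.687 with overlapping types and 0.788 with at least 1 UMI of Fos or Fosb, and for Tmem63a 0.911 with at least 1 early-gene UMI and 0.642 with Fos or Fosb. For Piezo2 in US- it became 1.99 (1.47 to 2.63) with at least 1 early-gene UMI. Asic2, whose intervals are narrow, turned too. Its library ratio in Lhx8 nuclei became 1.03 with nuclei over 20000 UMIs left out and 1.01 with each nucleus weighted alike, which also gave 0.982 in Skor2/Slc17a6 nuclei. Its early-gene ratio became 0.953 in US- and 1.003 in US+ without nuclei over 20000 UMIs, and 0.818 in US- with Fos or Fosb. Its US+ ratio of Tcf7l2/Slc17a6 over other types became 0.903 with gate genes from 2 UMIs and 0.990 with overlapping types. In Vipr2 nuclei, gate genes from 2 UMIs gave library ratios of 2.35 for Panx1 and 1.42 for Asic1. The cause was not tested. Removing the oligodendrocyte gate or Chat/Slc5a7 nuclei, alternatives added after the data were seen, left 0 members with at least 100 UMIs past 1.5-fold between the libraries. Tmem63a and Piezo1 have fewer UMIs and could not enter that count. Tmem63a was at 1.54 (0.623 to 3.92) without the oligodendrocyte gate, and Piezo1 at 1.56 (0.972 to 2.52) without Chat/Slc5a7 nuclei. Depth limits Piezo1 and Tmem63a most, and none of the intervals hold the variation between mice.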
